A study of Mus musculus with 2 samples.

Results

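Among the germ cells of ovaries from mouse pups at postnatal day 3, 64 of 627 carried RNA of the germ cell genes Tsga8 and Tex101 at a summed level of at least 3 UMIs per 10,000. A UMI, or unique molecular identifier, stands for 1 captured RNA molecule, and levels per cell are UMIs per 10,000 of the barcode's total. Germ cells were barcodes with at least 5,000 UMIs, at least 10 UMIs per 10,000 of Dazl, Sycp3 and Figla together, and less than 2 of the granulosa cell genes Foxl2 and Kctd14 together. The 64 cells stood among 9186 barcodes above that UMI floor and 10096 barcodes deposited. The cells were thus chosen by the measured levels of Tsga8, Tex101 and the other genes named here, whose values below are a description. The other 563 germ cells serve as the comparison, and for brevity the 64 cells are called the members.

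The ovaries came from C57BL pups whose mothers were treated from embryonic day E16.5 to postnatal day 3, the time in which oocytes leave their clusters and primordial follicles form. In the group DEHP_MLT the mothers received the phthalate plasticizer DEHP by gavage each morning and MLT, melatonin, later in the day. In the group MLT, DMSO took the place of DEHP and melatonin was given in the same way, so both groups received melatonin. Each group was 1 library of the 10x Genomics 3′ assay, and how many pups or ovaries went into each is not stated in the sources used here. No transgene or deletion is stated for either group. With 1 library per group there is no test of a difference: intervals at 95% confidence, exact binomial for shares and exact Poisson for summed UMIs, cover counting error only.

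Groups were taken from the sample titles. The names of the deposited tables carry the opposite group, so every direction between the libraries below would reverse if the names were right. Depth was 80657690 UMIs over 5277 barcodes for the library labelled MLT and 117355739 UMIs over 4819 barcodes for that labelled DEHP_MLT. The libraries had 4 barcode sequences in common, and 0 of these were members. Erythroid RNA in germ cells differed between the libraries, with medians of 3.10 UMIs per 10,000 in the other germ cells labelled MLT and 45.5 in those labelled DEHP_MLT.

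In the fetal mouse ovary, germ cells enter meiosis, assemble the synaptonemal complex that joins paired chromosomes, recombine, and then arrest in the dictyate stage around birth. As they arrest, they are enclosed in primordial follicles and begin to accumulate RNA of the zona pellucida, the coat of the egg, and of maternal proteins stored for the embryo. Tex101 and Ly6k encode GPI-anchored surface proteins of the Ly6/uPAR family, which bind each other in mouse male germ cells. Tsga8 is an X-linked gene best known from spermatids, and Taf7l is the X-linked germ cell paralogue of Taf7, a subunit of the general transcription factor TFIID.

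The promoters of the marker genes are shown because these genes define the cells described below. They are the 250 bases before the annotated start, read on the gene's own strand from RefSeq on GRCm38.p6, a later build than the mm9 named by the submitters. Capitals mark matches on either strand to 2 of the 4 motifs searched, the CCAAT box (CCAAT, or ATTGG on the other strand) and the E-box CACGTG. Tsga8 lies at chrX:83487925-83488174, Tex101 at chr7:24672051-24672300 and Taf7l at chrX:134476491-134476740, all on the minus strand.
Tsga8: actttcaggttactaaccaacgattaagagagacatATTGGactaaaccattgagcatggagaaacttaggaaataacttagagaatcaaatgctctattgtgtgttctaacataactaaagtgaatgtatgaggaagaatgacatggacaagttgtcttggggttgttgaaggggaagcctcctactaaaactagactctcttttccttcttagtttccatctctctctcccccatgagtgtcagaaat
Tex101: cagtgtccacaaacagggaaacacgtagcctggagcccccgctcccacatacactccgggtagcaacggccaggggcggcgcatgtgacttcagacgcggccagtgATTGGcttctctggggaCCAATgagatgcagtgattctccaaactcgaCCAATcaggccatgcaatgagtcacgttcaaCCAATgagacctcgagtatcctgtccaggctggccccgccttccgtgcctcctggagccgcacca
Taf7l: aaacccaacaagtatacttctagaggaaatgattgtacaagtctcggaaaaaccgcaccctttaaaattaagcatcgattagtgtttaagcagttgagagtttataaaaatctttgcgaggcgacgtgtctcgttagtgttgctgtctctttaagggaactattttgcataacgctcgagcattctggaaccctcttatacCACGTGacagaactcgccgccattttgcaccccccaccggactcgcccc

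The Tex101 window held 4 CCAAT matches and the Tsga8 window 1, while the Taf7l window held 1 E-box match and 0 CCAAT matches. The share of all 27025 RefSeq mouse genes with a match in this window was 37.5% for CCAAT and 6.86% for CACGTG. Of the marker genes and the 15 genes named below as higher in the members, 14 of 17 had a promoter entry. CCAAT stood in 5 of the 14, CACGTG in 2 (Taf7l and Topaz1), the E2F6-type motif TCCCGC in 3 against 18.8% of all genes, and the cAMP response element TGACGTCA in 0 against 1.77%. A match describes letters in the window and is not a binding site.

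Members made up 11.6% of the germ cells in the library labelled DEHP_MLT (59 of 507, interval 8.98 to 14.8) and 4.17% in the library labelled MLT (5 of 120, interval 1.37 to 9.46). The intervals overlap, and no replicate library tells how far such a share varies between litters. The same level of Tsga8 and Tex101 was rare in the other classes of barcode examined. Barcodes from 1 to below 10 UMIs per 10,000 of Dazl, Sycp3 and Figla together were not examined. Of the barcodes with both germ and granulosa RNA, 4 of 214 labelled DEHP_MLT and 0 of 35 labelled MLT were at or above it. Of barcodes with less than 1 UMI per 10,000 of the germ cell genes, 0 of 2793 and 0 of 2954 were. At a limit of 3 counts in place of an exact interval, this allows a share of up to 0.107% and 0.102%.

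Tsga8 was the more abundant gene of the pair in most members, by 3′ UMI counts, which do not scale with gene length. In the 59 members labelled DEHP_MLT its level ran from 0 over a median of 3.76 to 28.8 UMIs per 10,000, against 0, 0 and 2.72 in the other 448 germ cells. Tex101 ran from 0 over a median of 2.67 to 14.1 in the members and from 0 over a median of 0 to 2.99 in the others. Both genes were detected in 51 of the 59 members, Tsga8 alone in 3 and Tex101 alone in 5, and Tsga8 exceeded Tex101 in 39. The UMIs behind the pair ranged from 3 to 175 per member with a median of 30, and 5 members had 5 or fewer. At the threshold, 12 members lay between 3 and 4 UMIs per 10,000, the lowest at 3.18, and 18 germ cells just below it lay from 2.01 to 2.99.

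**Figure D1:**
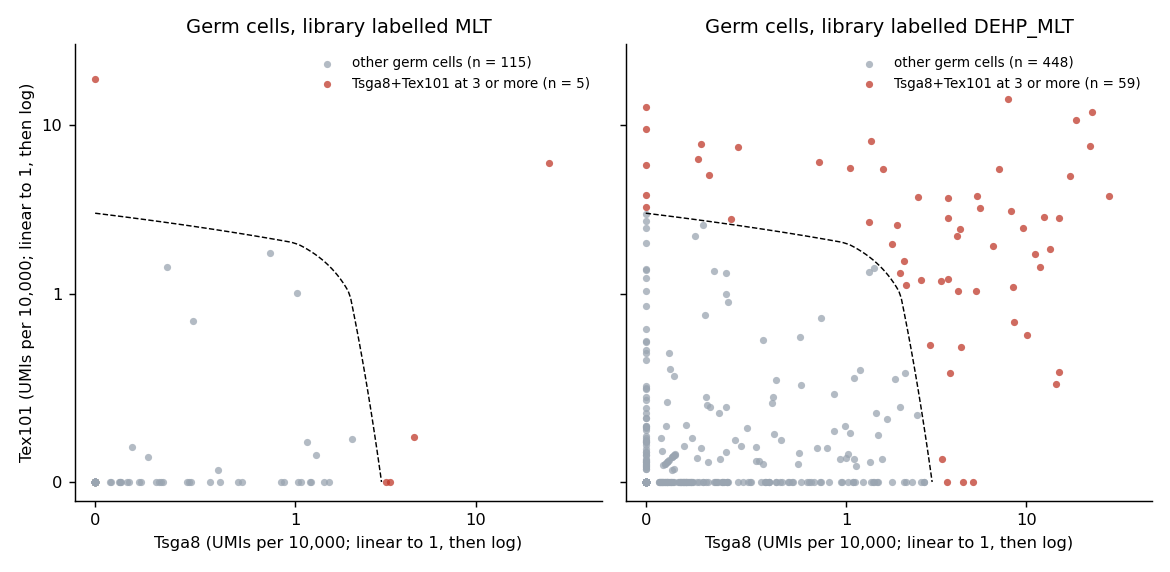
Tsga8 (horizontal) and Tex101 (vertical) in UMIs per 10,000 for each germ cell, 1 point per cell, in the library labelled MLT (left) and the library labelled DEHP_MLT (right); axes are linear to 1 and logarithmic above. The dashed line is a sum of 3; the 59 members labelled DEHP_MLT spread along both axes, with 51 having both genes, and the 5 members labelled MLT include 1 with Tex101 at 18.7 and no Tsga8.

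The 5 members labelled MLT were unlike each other. A cell of 11826 UMIs had Tsga8 at 25.4, Tex101 at 5.92, Taf7l at 4.23 and Ly6k at 1.69 UMIs per 10,000. A cell of 20285 UMIs had Tsga8 at 0, Tex101 at 18.7, Taf7l at 12.3 and Ly6k at 1.48. A cell of 83588 UMIs had Tsga8 at 4.55, Tex101 at 0.24, Taf7l at 0.12 and Ly6k at 0. The first of these cells had UMIs of all 4 markers and the second of all but Tsga8. Their Ly6k rested on 2 and 3 UMIs, and other germ cells labelled MLT reached 2.54 UMIs per 10,000 of it. The deepest cell was a member through Tsga8 alone. The remaining cells, of 5990 and 6276 UMIs, entered on 2 UMIs of Tsga8 each, at 3.34 and 3.19 per 10,000, and held 0 UMIs of Tex101 and Ly6k.

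Taf7l and Ly6k were proposed as markers from these data, so their levels are a description too. Taf7l ran from 0 over a median of 1.40 to 15.2 UMIs per 10,000 in the members labelled DEHP_MLT, and had a median of 0 and a highest value of 14.4 in the others. Ly6k ran from 0 over a median of 0.76 to 13.1 in the members, and from a median of 0 to 3.78 in the others. The groups overlapped for both genes, and a few germ cells outside the group were high in them. Taf7l and Ly6k together reached 3 UMIs per 10,000 in 29 of 59 members and in 7 of 448 others, and 4 members had no UMI of either. All 4 marker genes were detected in 37 of the 59.

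These genes are read above free RNA. In barcodes with little germ cell RNA labelled DEHP_MLT, which should lack the genes, Tsga8 had a UMI in 3.22%, Tex101 in 2.08%, Taf7l in 2.58% and Ly6k in 0.97%, at a median depth of 12701 UMIs. The members' median depth was 43891 UMIs, so the shares were set side by side again with every barcode thinned to 5,000 UMIs. Thinned, Tsga8 was detected in 72.9% of members, 12.3% of other germ cells and 0.90% of the barcodes with little germ cell RNA. The thinned shares of Tex101 were 67.8%, 6.25% and 0.50%, those of Taf7l 57.6%, 9.82% and 0.90%, and those of Ly6k 50.8%, 3.57% and 0.29%.

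Within the 59 members, Spearman's rho over these cells of 1 library was 0.63 between Tex101 and Taf7l, 0.56 between Tex101 and Ly6k and 0.38 between Taf7l and Ly6k. It was -0.31 between Tsga8 and Taf7l, -0.22 between Tsga8 and Ly6k and -0.24 between Tsga8 and Tex101. These values are partly set by the selection, since a cell low in Tsga8 or Tex101 had to be high in the other, and nothing is read from their sign.

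The label of germ cells was set against genes the selection did not use. Ddx4, an RNA helicase of germ cells, had a UMI in 53 of 59 members labelled DEHP_MLT, and Mael, a protein of the piRNA pathway, in 58. Thinned to 5,000 UMIs, Ddx4 was detected in 50.8% of members and 2.15% of barcodes with little germ cell RNA, and Mael in 69.5% of members and 109 of the 2793 barcodes. Labelled MLT, 3 of 5 members had a UMI of Ddx4 and 4 of 5 of Mael. Granulosa markers other than the 2 used for the selection summed to a median of 0.79 UMIs per 10,000 in members and 1.06 in other germ cells. Stroma markers had medians of 2.02 and 1.80, immune markers 0.96 and 0.78, and endothelial markers 0.12 and 0.14. Against these, erythroid markers stood at a median of 53.3 in members and 45.5 in others, and 1 member reached 4403. Dppa3, a maternal chromatin protein, was below 3 UMIs per 10,000 in 11 of 59 members and in 1 of 448 others. Doublets were not removed with a caller, and the part of 2-cell barcodes in these values was not tested.

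Members were shallower than the other germ cells. In the library labelled DEHP_MLT, UMIs per cell ran from 7501 over a median of 43891 to 128345 in members and from 6988 over 78209 to 204112 in the others. Mitochondrial UMIs had medians of 6.26% and 5.16%. The part of depth in the differences that follow was not tested.

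Genes were then compared between the summed UMIs of members and other germ cells within the library labelled DEHP_MLT, as CPM (counts scaled to the same total in each class), with log2 ratios taken after adding 1 CPM. Of 3689 genes with at least 50 CPM in either class, 44 (1.19%) were at least 2-fold higher in members and 109 (2.95%) at least 2-fold lower, with intervals apart. The median log2 ratio over all these genes was 0.06. With both classes limited to cells between the members' depth quartiles, 29 members and 85 others, the counts were 107 higher and 184 lower of 3796 genes. A gene can enter the comparison through the class in which it is high, so counts over genes that entered describe these cells and are no evidence on their own. For the library labelled MLT, the same ratios rest on 127965 UMIs from 5 cells, of which the cell of 83588 gave most. There, of 4361 genes, 370 (8.48%) were at least 2-fold higher in members and 172 (3.94%) at least 2-fold lower, so a ratio past 2-fold is more frequent among all genes than in the deeper library.

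**Figure D2:**
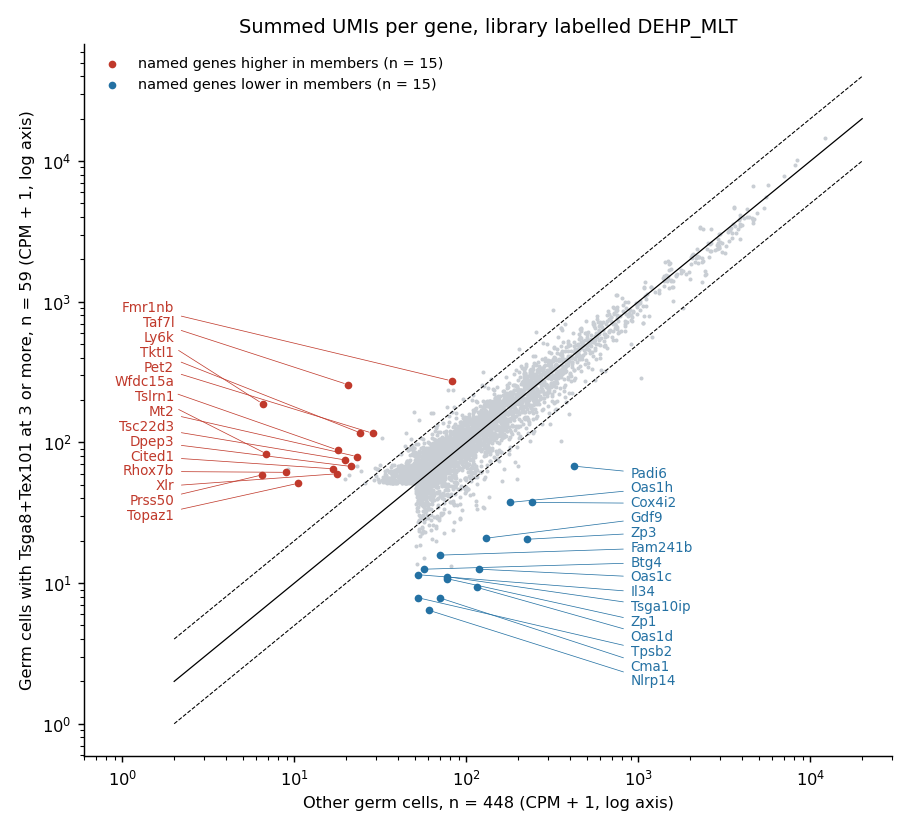
Level of each gene in other germ cells (horizontal) and members (vertical) in the library labelled DEHP_MLT, as CPM + 1 on log axes, for genes with at least 50 CPM in either class and without the genes that chose the cells. The solid line marks equal levels and the dashed lines 2-fold; the 15 named higher genes (red) include Ly6k at 187 against 5.53 CPM, and the 15 named lower genes (blue) include Padi6 at 66.8 against 422 CPM.

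The genes with the highest ratios included genes of male meiosis and testis antigens, and 9 of the 15 named lay on the X chromosome. Ly6k stood at 187 CPM in members and 5.53 in others (log2 ratio 4.85), and Taf7l at 257 and 19.4 (3.66). Topaz1, which mouse spermatocytes need to complete meiosis, stood at 50.2 and 9.49 CPM (2.29). Tktl1, a transketolase-like enzyme encoded on the X chromosome, stood at 116 and 23.2 CPM (2.27). With the cells labelled MLT the log2 ratios were 2.36 for Ly6k, 3.87 for Taf7l, 2.14 for Topaz1 and 3.29 for Tktl1, all above 0. These rest on few cells: the member of 20285 UMIs gave 25 of the 32 UMIs of Taf7l and 3 of the 5 of Ly6k. Topaz1 had a UMI in 2 of the 5 members labelled MLT and Tktl1 in 3.

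Per cell, Tktl1 had a UMI in 50 of 59 members and 259 of 448 others, with medians of 0.94 and 0.10 UMIs per 10,000. Fmr1nb, a testis and tumour antigen, was detected in all 59 members, from 0.47 over a median of 2.19 to 14.6 UMIs per 10,000, and in the others from 0 over 0.75 to 5.97. Its summed level was 273 against 81.0 CPM (log2 ratio 1.74). The 2 classes overlapped, and the members' median lay above that of the others for both genes. Between 42 (Pet2) and 49 (Wfdc15a) of the 59 members had a UMI of each of 4 further higher genes. These were Xlr, of an X-linked family related to Sycp3 (58.8 and 16.7 CPM), Pet2 (115 and 27.5), Wfdc15a (87.3 and 16.8), and Tsc22d3, a glucocorticoid-induced leucine zipper protein (74.0 and 18.8). Rhox7b, a homeobox gene (60.3 and 7.95), had a UMI in 32 members, with a median of 0.18 UMIs per 10,000.

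A group of higher genes rested on few members. One member of 103566 UMIs gave 140 of the 217 UMIs of the metallothionein Mt2, 86 of 227 of Tslrn1, 74 of 177 of the coactivator Cited1, 66 of 184 of the dipeptidase Dpep3 and 45 of 160 of the testis protease Prss50. Without each gene's own highest member, 40 of the 44 higher genes and 109 of the 109 lower genes stayed past 2-fold with intervals apart. The 4 that did not were Mt2 (log2 ratio 0.37 in place of 1.78), Hormad1 (0.99 in place of 1.16), Brd2 (0.97 in place of 1.05) and Gm26917 (0.99 in place of 1.07). The member of 103566 UMIs also gave 115 of the 519 UMIs of Ly6k and 31 of the 167 of Rhox7b. Without that cell, the ratio was 1.23 for Cited1, 1.08 for Dpep3, 2.76 for Prss50, 2.97 for Tslrn1, 4.55 for Ly6k and 2.54 for Rhox7b. Cited1 and Mt2 were detected in a smaller share of members than of others, 37.3% against 53.1% and 52.5% against 65.0%, although their summed levels were higher, and members were shallower. Thinned to 5,000 UMIs, Cited1 was detected in 15.3% of members and 7.81% of others and Mt2 in 8.47% and 9.15%, so no order is read from the full-depth shares. In the members labelled MLT, Prss50, Cited1 and Dpep3 had 0 UMIs, where a count of 0 has an exact interval up to 28.8 CPM.

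The lower genes included several of the oocyte's growth. Zp3 and Zp1, which encode proteins of the zona pellucida, stood at 19.5 against 225 CPM (log2 ratio -3.47) and 9.74 against 76.1 (-2.84). Gdf9, a growth factor that oocytes send to granulosa cells, stood at 19.9 against 129 CPM (-2.65). Padi6, needed for the cytoplasmic lattices of the mouse egg, stood at 66.8 against 422 CPM (-2.64). Zp3 ran from 0 over a median of 0 to 1.23 UMIs per 10,000 in members and from 0 over 1.20 to 21.1 in others, and was below 1 in 55 of 59 members and 204 of 448 others. Members thus lay within the lower range of the other germ cells rather than outside it.

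The oocyte-expressed members of the Oas1 family, relatives of the 2′-5′ oligoadenylate synthetases, were low together. Oas1d stood at 8.30 against 115 CPM (log2 ratio -3.64), Oas1c at 11.6 against 117 (-3.23) and Oas1h at 36.5 against 179 (-2.27). Nlrp14, an oocyte and germ cell gene of the NLR family, stood at 5.41 against 59.3 CPM, and Btg4, an adaptor for decay of maternal mRNA, at 11.6 against 56.0. Cox4i2, an isoform of a cytochrome c oxidase subunit, stood at 36.5 against 239 CPM, Il34, a ligand of the Csf1 receptor, at 10.5 against 51.3, Tsga10ip at 10.1 against 76.1 and Fam241b at 14.8 against 69.4. Among cells labelled MLT, 14 of the 15 lower genes also had a ratio below 0, 11 of them with intervals apart.

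The exception was the mast cell tryptase Tpsb2, at 6.86 against 51.5 CPM in the library labelled DEHP_MLT and with a log2 ratio of 1.37 in the other. That ratio rests on 1 UMI in members and 18 in others, with intervals overlapping, so no direction is read from it. Tpsb2 and the chymase Cma1 were carried by few cells: 3 of the 448 other germ cells gave 59.5% of the UMIs of Tpsb2 and 54.3% of those of Cma1. For the remaining 13 lower genes, the 3 highest cells gave between 3.12% (Oas1h) and 7.74% (Btg4). Of the 15 higher genes, 11 had a ratio above 0 in the library labelled MLT, 8 with intervals apart.

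Many of the higher genes were X-linked. Of the 44 higher genes 16 lay on the X chromosome (36.4%), against 136 of 3669 compared genes with a known chromosome (3.71%), and 0 of the 109 lower genes did. Among these 16 were Prdx4, a peroxiredoxin of the endoplasmic reticulum (872 against 316 CPM), Trap1a, a tumour rejection antigen (160 against 61.0), Mageb4, of the melanoma antigen family (204 against 94.7), and Scml2, a germline Polycomb protein (61.4 against 23.4). All but Cited1 had a ratio above 0 in the library labelled MLT, that is 15 of 16, but intervals overlapped there for Tslrn1, Rhox7b, 8030474K03Rik and Mageb4. Pet2 was detected there in 1 of the 5 members. The share itself was smaller among the 367 genes at least 2-fold higher in the members labelled MLT that have a known chromosome, of which 29 lay on the X chromosome (7.90%), against 149 of 4338 compared (3.43%). In the library labelled DEHP_MLT, of 43 X-linked germ cell genes on the gene list used here, 9 entered with a median log2 ratio of 1.10, and 6 were at least 1.5-fold higher and 0 lower. The X chromosome as a whole differed little: without Tsga8, Taf7l, Xist and Tsix it gave a median of 2.99% of UMIs in members and 2.88% in others, with ranges of 1.95 to 6.71 and 2.07 to 3.78.

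Prdx4 was the most abundant of these genes. It ran from 0 over a median of 8.02 to 18.4 UMIs per 10,000 in the members labelled DEHP_MLT and from 0 over 2.76 to 13.3 in the others. The ranges overlapped, and the median of the members was above that of the others by a wide margin. Labelled MLT, the medians were 5.07 and 1.62.

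The gene lists that follow were chosen with earlier results of these data known, and are given by counts beside those over all compared genes. Over all 3689, 242 (6.56%) were at least 1.5-fold higher in members and 323 (8.76%) at least 1.5-fold lower; with the 5 members labelled MLT these shares were 27.2% and 15.7%. Of 12 synaptonemal complex and chromosome axis genes listed, 7 entered besides Sycp3, with a median log2 ratio of 0.91; 5 were at least 1.5-fold higher and 0 lower. They were 4930447C04Rik, the central element protein also named Six6os1 (163 against 48.5 CPM), Syce3 of the central element (235 against 76.9), the axis protein Hormad1 (64.6 against 28.3), Tex12 (96.7 against 51.0) and the transverse filament protein Sycp1 (694 against 374). Syce1 (230 against 208) and Syce2 (601 against 493) differed by less than 1.5-fold.

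Sycp1 ran from 0 over a median of 6.94 to 21.6 UMIs per 10,000 in members labelled DEHP_MLT and from 0 over 3.39 to 33.3 in the others. Syce3 ran from 0 over 1.88 to 16.3 in members and from 0 over 0.67 to 4.98 in others. The sum of the listed genes of this kind without Sycp3 lay above the other germ cells' median in 53 of the 59 members and in 5 of the 5 members labelled MLT. One of those 5, the cell with Tex101 and no Tsga8, held Sycp3 at 40.9 and Sycp1 at 38.5 UMIs per 10,000, with Figla, the transcription factor of zona genes, at 0.49.

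Cohesin and recombination genes differed less. Of 42 listed, 12 entered with a median of 0.24, and 2 were at least 1.5-fold higher and 0 lower: Rnf212, a crossover factor (54.1 against 18.7 CPM), and the X-linked Tex11 (81.2 against 40.8). The meiotic cohesin Smc1b, the most abundant, stood at 1058 against 798 CPM. The summed level lay above the others' median in 47 of 59 members.

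**Figure D3:**
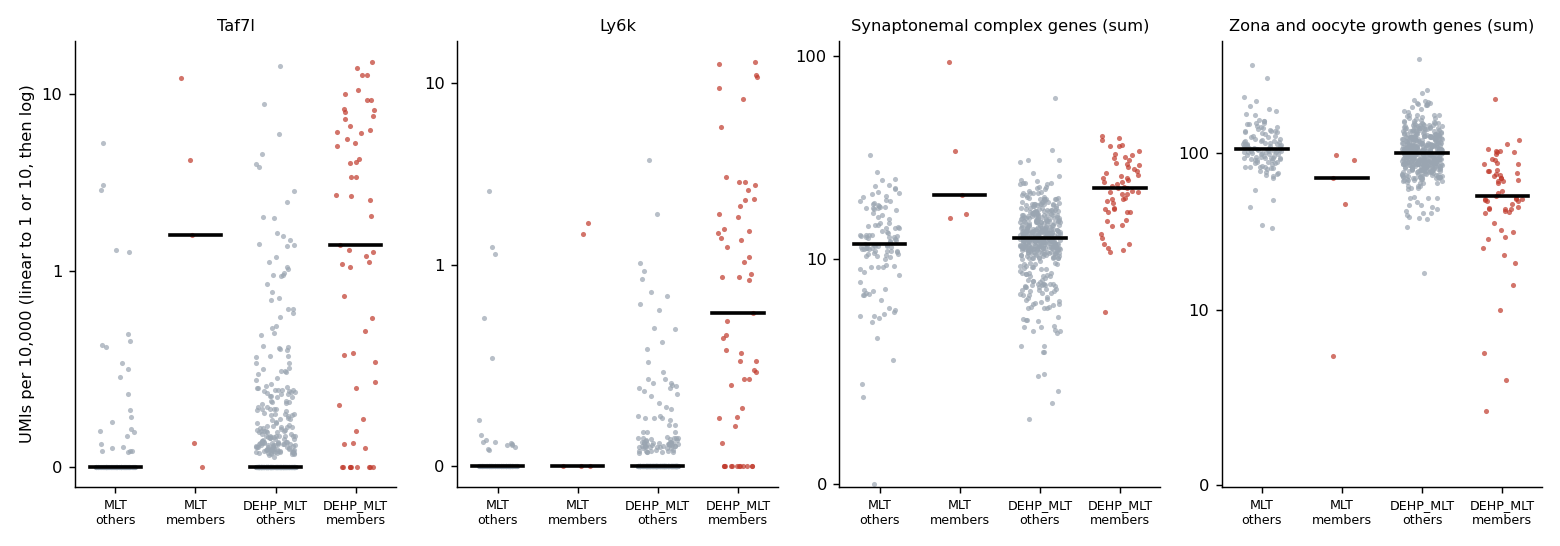
Level per germ cell of Taf7l, Ly6k, and the sums over the synaptonemal complex list (without Sycp3) and the zona and oocyte growth list, in UMIs per 10,000 (linear to 1 or 10, then logarithmic), for other germ cells (grey) and members (red) of each library; black bars are medians over cells. Members labelled DEHP_MLT have a median synaptonemal sum of 22.4 against 12.6 and a median zona and growth sum of 53.4 against 101 in the others.

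Zona pellucida and oocyte growth genes were the reverse. Of 38 listed, 19 entered with a median log2 ratio of -1.86, and 16 were at least 1.5-fold lower and 0 higher. Besides the genes already named, Ooep, a protein of the subcortical maternal complex, stood at 285 against 1040 CPM (-1.86), the oocyte linker histone H1foo at 26.4 against 83.5, Nlrp5 at 194 against 378, Zp2 at 106 against 202 and Dppa3 at 1372 against 2355. Uchl1, an abundant ubiquitin hydrolase of germ cells (3436 against 3882) and the receptor Kit (157 against 173) differed by less than 1.5-fold. Ooep ran from 0 over a median of 1.79 to 11.4 UMIs per 10,000 in members and from 0.24 over 8.13 to 55.4 in the others. The summed level was below the others' median in 51 of 59 members labelled DEHP_MLT and in 5 of 5 labelled MLT.

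Transcription factors that act in follicle formation differed less than these. Of 18 listed, 11 entered besides Figla with a median of 0.03, and 1 was at least 1.5-fold higher (Taf4b, 67.9 against 36.1 CPM) and 0 lower. Nobox stood at 213 against 293 CPM, Lhx8 at 297 against 303 and Sohlh1 at 598 against 564. Figla, which was part of the selection, stood at 1008 against 794 CPM and was below 2 UMIs per 10,000 in 4 of 59 members and 2 of 448 others. The sum over this list without Figla was below the others' median in 38 of 59 members labelled DEHP_MLT and above it in 21. Nobox had a median of 1.81 UMIs per 10,000 in members and 2.79 in others.

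**Figure D4:**
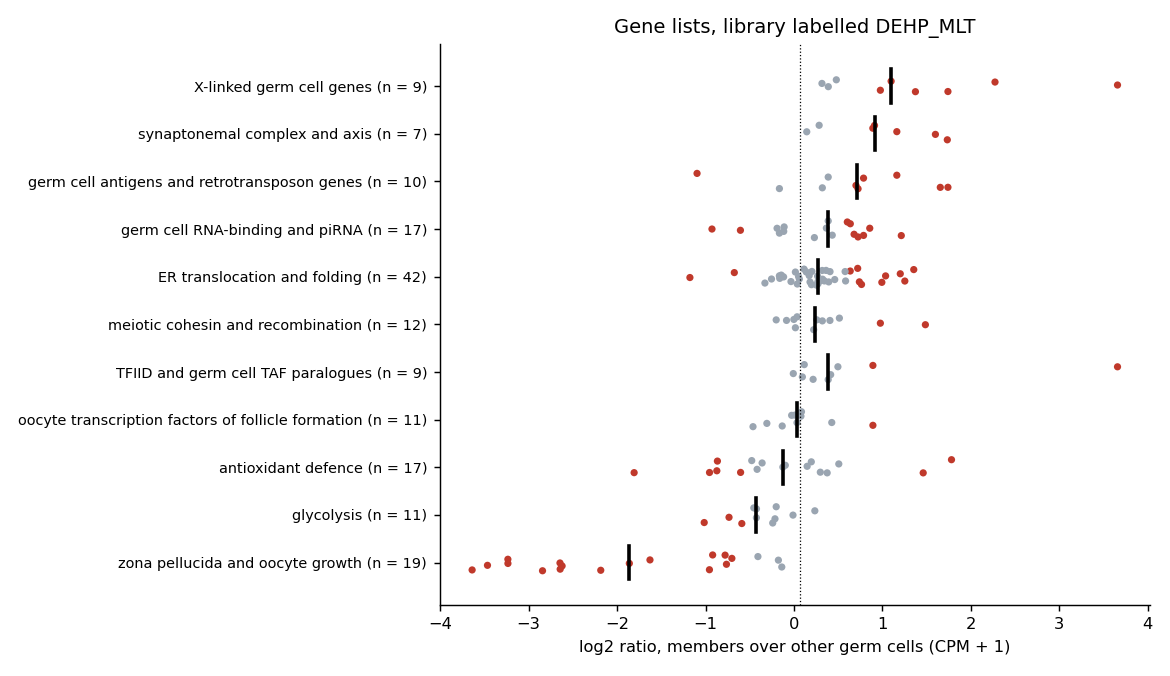
Log2 ratio of members over other germ cells (CPM + 1) in the library labelled DEHP_MLT, 1 point per gene with at least 50 CPM in either class, by gene list; red points are at least 1.5-fold apart, black bars are list medians and the dotted line is the median of all 3689 genes, 0.06. Medians run from 1.10 for X-linked germ cell genes and 0.91 for the synaptonemal complex to -1.86 for zona and oocyte growth genes.

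Genes of RNA binding and the piRNA pathway, which silences transposons in germ cells, were mixed. Of 25 listed, 17 entered with a median of 0.39, and 7 were at least 1.5-fold higher and 2 lower. Stk31 (178 against 76.0 CPM), Tdrd9 (113 against 62.1) and Mael (292 against 169) were higher, and Gtsf1 (702 against 1068) and Tdrd5 (55.2 against 106) lower. Piwil2 (118 against 100.4) and Tdrd1 (170 against 190) differed by less than 1.5-fold. With the cells labelled MLT, the ratios were above 0 for Stk31 (1.09) and below 0 for Gtsf1 (-0.81).

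TFIID subunits were included because Taf7l is one. Of 23 listed, 9 entered, and 2 were at least 1.5-fold higher, Taf7l and Taf4b, with 0 lower. Taf7, the general paralogue, stood at 252 against 193 CPM, a difference of less than 1.5-fold. The shared core subunits Taf10 (588 against 591), Taf5 (285 against 214) and Taf12 (93.8 against 66.2) differed by less than 1.5-fold.

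Redox genes differed in both directions, and the glycolysis genes past 1.5-fold were all lower. Of 17 antioxidant genes that entered of 26 listed, 2 were at least 1.5-fold higher (Prdx4, and Mt2 through the 1 cell described above) and 5 lower. The lower genes were Gsta4, a glutathione transferase (101 against 355 CPM), Prdx2 (91.3 against 178), Gpx4 (223 against 408), Gpx1 (62.4 against 115) and the glutathione reductase Gsr (41.5 against 63.6). Of 11 glycolysis genes that entered of 20 listed, 0 were at least 1.5-fold higher and 3 lower, among them Ldhb, the lactate dehydrogenase subunit of oocytes (897 against 1813 CPM). Ldhb ran from 0.31 over a median of 5.89 to 23.4 UMIs per 10,000 in members and from 0 over 17.8 to 115 in the others.

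Several chaperones of the endoplasmic reticulum were higher, on a list chosen after the values were seen. Of 53 genes of translocation and folding, 42 entered with a median of 0.27, and 9 were at least 1.5-fold higher and 2 lower. The chaperone Hspa5 stood at 318 against 124 CPM, the lectin chaperone Calr at 606 against 254, the translocon subunit Ssr2 at 463 against 201 and the signal peptidase subunit Sec11a at 283 against 138. Ero1lb, an oxidase of the same compartment, was lower at 36.1 against 82.8. Calr ran from 0 over a median of 6.12 to 18.2 UMIs per 10,000 in members and from 0 over 2.51 to 9.76 in others. In the members labelled MLT the ratios were 1.97 for Hspa5, 1.54 for Calr and 1.55 for Ssr2.

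In the library labelled DEHP_MLT, germ cells from 1 to below 3 lay between the members and the cells without Tsga8 or Tex101 for the values given here. Germ cells labelled DEHP_MLT were placed in 5 bands of the summed level: 198 cells at 0, 187 above 0 and below 1, 63 from 1, 22 from 3 and 37 from 6. Across these bands the mean level of Prdx4 was 2.39, 3.33, 4.81, 7.19 and 9.23 UMIs per 10,000. Zp3 went the other way, with means of 3.46, 2.05, 0.66, 0.22 and 0.22. The median sum of zona and growth genes was 112, 96.2, 80.8, 51.4 and 55.7, and that of the synaptonemal complex list without Sycp3 12.1, 12.8, 15.1, 17.3 and 24.9. Median depth across the bands was 57339, 90218, 56493, 49660 and 38321 UMIs, and the bands from 3 upward are the members. The order did not hold throughout in the library labelled MLT. There, mean Prdx4 was 3.25 in the 13 cells from 1 to below 3 and 2.29 in the 3 from 3 to below 6. The median synaptonemal sums of these bands were 18.3 and 16.7.

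**Figure D5:**
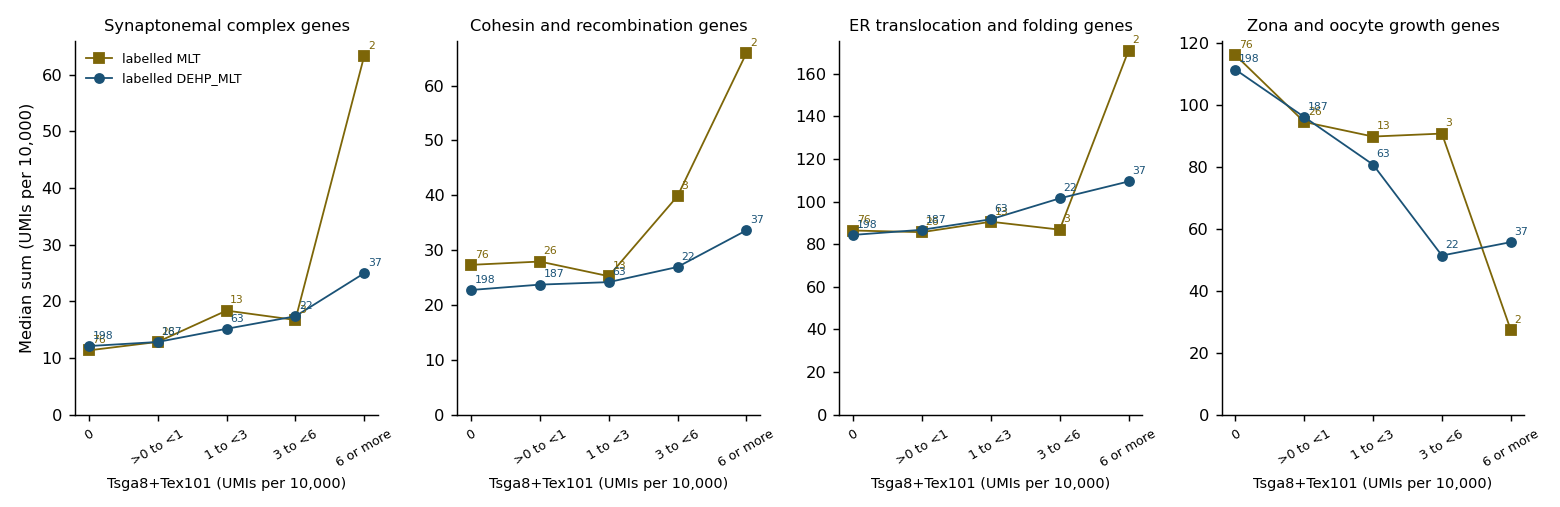
Median over germ cells of the summed level of 4 gene lists (UMIs per 10,000) across 5 bands of Tsga8 and Tex101 summed, for the library labelled MLT (squares) and the library labelled DEHP_MLT (circles); small figures give the number of cells behind each point. In the library labelled DEHP_MLT the synaptonemal sum is 12.1 in the lowest band and 24.9 in the highest, and the zona and growth sum 112 and 55.7; the highest band labelled MLT holds 2 cells.

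Members were also split by which of Tex101 and Tsga8 was higher, after the values were seen. Both genes chose the cells, and a cell low in one had to be high in the other. The values of each side are thus partly set by the selection and are a description. In the library labelled DEHP_MLT there were 20 members with Tex101 at or above Tsga8 (median depth 34145 UMIs) and 39 with Tsga8 above Tex101 (54850 UMIs). Of 3766 genes at 50 CPM or more on either side, 48 (1.27%) were at least 2-fold higher on the Tex101 side and 49 (1.3%) at least 2-fold lower, with intervals apart. Taf7l stood at 565 CPM on the Tex101 side and 165 on the Tsga8 side, Ly6k at 321 and 148, Fmr1nb at 461 and 217, 4930447C04Rik at 318 and 118, and Calr at 1072 and 468.

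Some maternal and oocyte genes, also picked after the values were seen, were lower on the Tex101 side. Nlrp5 stood at 77.1 CPM on the Tex101 side and 229 on the Tsga8 side, Tle6, its partner in the subcortical maternal complex, at 137 and 389, Ooep at 161 and 323, Gja4, the connexin of the oocyte, at 47.2 and 126, and Nobox at 134 and 236. Figla was slightly higher on the Tex101 side in summed UMIs, at 1103 against 979 CPM. Per cell, it ran from 0 over a median of 9.64 to 31.1 UMIs per 10,000 there and from 4.16 over 9.44 to 23.0 on the Tsga8 side. The 4 members with Figla below 2 UMIs per 10,000 were thus all on the Tex101 side. Dppa3 differed less than the lower genes, at 1193 and 1426 CPM, as did Sycp3 at 1234 and 1109. Taf7l ran from 0 over a median of 6.14 to 15.2 UMIs per 10,000 on the Tex101 side and from 0 over 0.87 to 10.6 on the Tsga8 side. The 2 sides overlapped for each of these genes.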

How the data were processed

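The authors deposited 1 table of counts per library, whole UMI counts per gene and barcode with no normalization. Cell Ranger, with no version given, Seurat 4.2.0 and the genome build mm9 are named per the submitters' processing notes. Tissue, strain and treatment are given per the labels. Samples were grouped by title. From the counts, levels per 10,000 UMIs and CPM of summed classes were computed (Python 3.11.15, numpy 2.4.6, scipy 1.17.1, pandas 2.3.3). No filter on genes or mitochondrial share was set, and no doublet caller was run. Total counts per library are given in the results, and set the precision of the intervals.

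Named genes were the 15 highest and 15 lowest log2 ratios, members over others, in the library labelled DEHP_MLT among genes at least 2-fold apart with intervals apart. This left out the selecting genes, mitochondrial, ribosomal protein and haemoglobin genes, Xist, Tsix and gene models named Gm or ending in Rik. Of each list, members at least 1.5-fold apart (up to 6), the most abundant and those needed to describe it were also named; genes below 50 CPM and the X-linked genes outside the 15 were named after their values were seen. The cells, markers and lists were chosen with earlier results of these data known. Lists of endoplasmic reticulum, GPI anchor, mast cell protease, ribosomal and mitochondrial genes were added after the values were seen. Scripts were tested on simulated data. Thinning used a fixed seed. Promoters came from RefSeq GRCm38.p6. With 1 library per group no test was made.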

Additional observations from a re-analysis of the deposited data

How the results depend on the processing

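The share of members labelled DEHP_MLT was 15.2% with 2 and 8.28% with 5 UMIs per 10,000 in place of 3; for the library labelled MLT all settings gave 1.67% to 6.67%. The 44 higher and 109 lower genes of 3689 compared became 70 and 171 of 3732 against germ cells with no UMI of either gene. Thinned to 5,000 UMIs they were 126 and 186 of 3803, and at 1.5-fold 242 and 323 of 3689. With no minimum level they were 607 and 635, but of 20150 genes compared. In the library labelled MLT they were 370 and 172 of 4361. Limited to 29 members and 85 others of like depth (chosen after seeing the data), they were 107 and 184 of 3796. With equal weight per cell, 73 and 163 of 3679 genes were past 2-fold, but with no condition on intervals. Median-ratio scaling gave 41 and 132 of 3621, and a pseudocount of 10 CPM 36 and 78 of 3689. The synaptonemal median of 0.91 was 1.20, 1.11, 1.26 and 1.40 for equal weight, no-UMI others, thinning and like depth, and 1.81 in the library labelled MLT. The zona and growth median of -1.86 was -2.40, -2.23, -2.29 and -2.69 in the same order, -1.62 with a pseudocount of 10 CPM and -1.50 in the library labelled MLT. The recombination median of 0.24 was 0.52 thinned, 0.57 at like depth, 0.50 with no minimum and 1.06 in the library labelled MLT, and the median of the follicle transcription factors was -0.13 thinned. Tpsb2 turned to 0.61 against no-UMI others. In the library labelled MLT its ratio was 1.37, on 1 UMI in members. There, Mt2 stood at -0.024, Prss50 at -2.29, Cited1 at -3.86 and Dpep3 at -4.49. The causes were not tested, beyond the 5 cells behind that library's values.

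No paired analysis was possible because each group is 1 library. The treatment, the library and the litter cannot be told apart. At 2770675 UMIs over the members labelled DEHP_MLT a count of 0 has an exact interval up to 1.33 CPM.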

Other observations

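Genes of meiotic entry and early recombination lay below 50 CPM in both classes and so outside the comparison; they were read after the values were seen. In the library labelled DEHP_MLT, Stra8, the gatekeeper of meiotic entry, had 33 UMIs in 4 of 59 members, 16 of them in 1 cell, and 7 UMIs in 5 of 448 other germ cells. Spo11, which makes the breaks that start recombination, had 35 UMIs in 16 of 59 members and 20 UMIs in 19 of 448 others. In the members labelled MLT it had 0 UMIs, with an exact interval up to 28.8 CPM. Detection differed less for Dmc1, in 17 members and 122 others (12.6 against 5.12 CPM), and Rec8, in 9 and 52 (3.97 against 1.73 CPM), both labelled DEHP_MLT. The axis gene Sycp2 was detected in 36 members and 165 others (40.4 against 8.29 CPM). The X-linked homeobox gene Rhox13 was detected in 32 of 59 members and 47 of 448 others (42.6 against 2.20 CPM), and the X-linked RNA export factor Nxf2 in 35 and 85 (41.9 against 5.03 CPM); 1 member gave 23 of the 118 UMIs of Rhox13 and 25 of the 116 of Nxf2. Taf7l2, a further relative of Taf7, was detected in 28 and 66 cells (31.0 against 3.14 CPM).

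Some other genes below that level, also picked after the values were seen, were lower in members. Sall4, a pluripotency factor, had 0 UMIs in the 59 members and a UMI in 107 of 448 others, and Pou5f1 had 1 UMI in the members against 269 in 164 others. The cell cycle inhibitor Cdkn1b was detected in 18 members and 337 others (9.74 against 32.5 CPM), and the egg chromatin gene Npm2 in 12 and 241 (4.69 against 46.3 CPM). The oocyte genes Bmp15 (0 UMIs in members, with an exact interval up to 1.33 CPM, against 1.16) and Oosp1 (0.36 against 0.53 CPM) were too low to compare. Among ribosomal protein genes, 81 entered with a median log2 ratio of -0.11; 3 were at least 1.5-fold higher, the germ cell paralogues Rpl10l (95.3 against 47.4 CPM) and Rpl39l (a log2 ratio of 0.72) and Rpl7l1 (119 against 65.0 CPM), and 1 lower, the X-linked Rps4x (1571 against 2474). Of 29 late spermatid genes listed, 1 reached 50 CPM in either class, and that gene, Odf2, stood at 70.0 CPM in members and 97.9 in others.

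Some of the other lists gave these counts in the library labelled DEHP_MLT, and not every list is given. Of 27 germ cell antigen and retrotransposon genes, 10 entered, 6 at least 1.5-fold higher and 1 lower. Of 17 pluripotency and early germ cell genes, 3 entered, 0 higher and 2 lower. Of 34 genes of the Ly6/uPAR family and partners, 2 entered, Ly6k and the lower Pinlyp (37.5 against 112 CPM). Of 29 genes of GPI anchor synthesis, 8 entered with a median log2 ratio of 0.41, 1 at least 1.5-fold higher and 0 lower. The 11 mitochondrially encoded genes that entered had a median of 0.40 with 0 past 1.5-fold, and the 2 mast cell proteases that entered were the lower Tpsb2 and Cma1. Of 7 cell cycle genes that entered, 2 were lower and 0 higher, Pttg1, the inhibitor of separase (63.5 against 165 CPM), and the cyclin Ccna2 (41.9 against 84.8 CPM). Of 9 histone genes, the linker histone H1f0 was higher (143 against 52.1 CPM) and H1foo and Hist1h2ap lower. Genes of PI3K, mTOR and Kit signalling (13 entered) and of the immediate early and heat shock response (13 entered) had 0 members past 1.5-fold.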
